A study of Mus musculus with 18 samples.

Results

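The chemokine ligand genes of the mouse were followed in livers of db/db mice and in AML12 hepatocytes treated with recombinant mouse serum albumin (rMSA). A gene was a member when its symbol began with Cxcl or Ccl followed by a digit, or with Cx3cl1 or Xcl1. Of the 17855 genes listed in either expression table, 37 met this rule, all 37 of them in the liver table and 25 in the AML12 table. The other 12 (Ccl3, Ccl4, Ccl12, Ccl19, Ccl21a, Ccl21b, Ccl21c, Ccl22, Cxcl12, Cxcl13, Cxcl14 and Xcl1) were not analysed in AML12 cells. In AML12 cells the neutrophil-attracting ligands Cxcl1, Cxcl2, Cxcl3 and Cxcl5 rose under rMSA with and without insulin, and Cxcl17 fell. In the liver 8 of 24 tested members rose and 2 fell, beside 21.1% and 7.93% of all tested genes. The monocyte ligands Ccl2 and Ccl7, the eosinophil ligand Ccl24 and Cxcl14 were among those that rose, Ccl7 from under 0.5 TPM in every saline liver. The T cell ligand Cxcl9 fell, a call that was lost without rMSA liver 1 or without a filter on low genes.

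The series holds 18 RNA-seq libraries in 6 groups of 3. Livers came from male db/db mice (B6.Cg-dock7m Leprdb/++/J), a strain without a working leptin receptor that becomes obese and diabetic, and all 6 animals carried this genotype. The rMSA-treated mice received 1.5 mg of rMSA per gram of body weight intravenously every 3 weeks, 3 injections over 9 weeks, and the control mice received saline. AML12 is a hepatocyte line derived from a mouse with a transforming growth factor alpha transgene, labelled as wild type (WT) here. Its usual medium contains insulin, transferrin, selenium and dexamethasone. The cells were washed, starved overnight in DMEM without serum, and then exposed for 24 h to vehicle, to insulin at 10 nM, to rMSA at 600 µM, or to rMSA plus insulin. No source states that the 3 libraries of an AML12 group were separate cultures, so the p-values for AML12 cells measure the spread between these libraries, which may be technical.

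Chemokine ligands are small secreted proteins that direct the movement of leukocytes by binding receptors that couple to G proteins. CXC ligands of the ELR type, which carry a glutamate, leucine and arginine motif before the first cysteine, bind Cxcr2 and attract neutrophils, whereas many CC ligands attract monocytes, eosinophils or lymphocytes. In the liver they are made by hepatocytes, Kupffer cells, stellate cells, endothelial cells and bile duct cells, and inflammatory cytokines raise many of them.

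Levels are in TPM, the share of a transcript among all transcripts of a library after allowing for gene length, and depth could not be known from these values. Changes are differences of log2(TPM + 1) and therefore understate the change of low genes. A member rose or fell when its adjusted p was under 0.05, from limma with Benjamini-Hochberg adjustment over all genes that averaged 0.5 TPM or more in the table (12409 in liver, 11450 in AML12). By this filter 24 of 37 members were tested in liver and 16 of 25 in AML12. The closest members on either side of the filter were in liver, Ccl21b at a mean of 0.497 TPM and Cxcl2 at 0.505 TPM.

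Insulin libraries 1 and 2 stood apart from the other 10 AML12 libraries, with ribosomal protein genes taking 32.6% and 34.9% of all TPM against 21.5 to 27.2%, and with median TPM values of 12.9 and 9.89 against 14.4 to 20.5. Hepatocyte markers were low in AML12 cells, with Alb between 23.6 and 93.9 TPM and Cps1 between 0 and 0.02 TPM, whereas the bile duct keratin Krt19 stood between 1012 and 1804 TPM. No gene of the AML12 table was at 0 in all 3 insulin libraries, while 713 genes were at 0 in all vehicle libraries and 612 in all rMSA libraries. A ligand without a value under insulin could therefore not be followed in these cells. Scaling each library to its median, or quantile normalization, moved the split of all genes that rose and fell. In liver it went from 2624 and 984 to 1723 and 1543 (median) or 1880 and 1738 (quantile), for rMSA against vehicle from 705 and 219 to 607 and 333 or 756 and 635, and for rMSA plus insulin against insulin from 1659 and 311 to 692 and 760 or 998 and 917. The median log2 change of all genes shifted by -0.14 and -0.15 in liver and by -0.26 and -0.22 in rMSA plus insulin against insulin.

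In AML12 cells 8 of the 16 tested members rose with rMSA against vehicle and 1 fell, compared with 6.16% of all tested genes that rose and 1.91% that fell. With rMSA plus insulin against insulin, 8 members rose and 2 fell, compared with 14.5% and 2.72% of all genes. The median log2 change of the members was 0.67 in the first comparison (all genes, 0.06) and 0.80 in the second (all genes, 0.21). At a log2 change of at least 1 either way, 6 members passed in the first comparison (1.78% of all genes) and 7 in the second (2.65%). The groups did not overlap for 12 members in the first comparison, 10 higher and 2 lower with rMSA (25.5% and 13.9% of all genes), and for 10 in the second, 8 higher and 2 lower (20.8% and 4.81%). Under median scaling the members split 7 and 2 in the first comparison (all genes, 5.3% and 2.91%) and 6 and 3 in the second (6.04% and 6.64%). Under quantile normalization they split 7 and 2 (6.6% and 5.55%), then 8 and 2 (8.72% and 8.01%). The comparisons share no library, but the 4 AML12 groups share 1 estimate of the spread. Members that rose with rMSA in both comparisons were Cxcl1, Cxcl2, Cxcl3, Cxcl5, Ccl2, Ccl6 and Ccl25, and Cxcl17 fell in both.

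The ELR members lie within 1 stretch of chromosome 5 (GRCm38.p6 coordinates from RefSeq), with Cxcl5 at 90759298-90761625, Cxcl3 at 90786101-90788093, Cxcl15 at 90794534-90803067, Cxcl1 at 90891245-90893121 and Cxcl2 at 90903899-90905938, 146.6 kb in all, with Ppbp and Pf4 between Cxcl5 and Cxcl3. The promoters of Cxcl1, Cxcl2 and Cxcl3 are shown because these neighbours rose together, and that of Ccl6 because it rose in both comparisons from another chromosome. Each line gives the 250 bases before the transcription start from RefSeq (GRCm38.p6), read 5′ to 3′ on the strand of the gene. The windows are chr5:90890995-90891244 (plus strand) for Cxcl1, chr5:90903649-90903898 (plus strand) for Cxcl2, chr5:90785851-90786100 (plus strand) for Cxcl3 and chr11:83593088-83593337 (minus strand) for Ccl6. Capitals mark matches to the NF-kappaB consensus.

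Cxcl1: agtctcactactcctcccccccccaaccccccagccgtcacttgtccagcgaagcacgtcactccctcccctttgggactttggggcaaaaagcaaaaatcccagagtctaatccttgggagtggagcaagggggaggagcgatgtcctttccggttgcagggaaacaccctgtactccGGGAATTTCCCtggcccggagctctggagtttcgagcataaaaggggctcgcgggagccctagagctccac
Cxcl2: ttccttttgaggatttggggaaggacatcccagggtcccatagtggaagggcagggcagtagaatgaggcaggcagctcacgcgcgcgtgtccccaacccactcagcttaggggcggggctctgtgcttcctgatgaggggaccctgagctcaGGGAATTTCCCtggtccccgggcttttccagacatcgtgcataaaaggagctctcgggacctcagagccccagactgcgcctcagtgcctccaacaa
Cxcl3: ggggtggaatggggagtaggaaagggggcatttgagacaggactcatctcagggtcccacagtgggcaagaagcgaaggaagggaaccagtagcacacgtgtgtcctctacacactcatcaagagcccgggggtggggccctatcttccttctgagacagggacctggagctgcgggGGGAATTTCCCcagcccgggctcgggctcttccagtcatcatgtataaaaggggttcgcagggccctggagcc
Ccl6: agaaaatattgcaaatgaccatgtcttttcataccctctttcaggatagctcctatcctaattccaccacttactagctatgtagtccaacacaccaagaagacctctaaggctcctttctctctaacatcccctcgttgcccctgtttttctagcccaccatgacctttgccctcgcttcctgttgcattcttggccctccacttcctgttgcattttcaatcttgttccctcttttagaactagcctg

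The Cxcl1, Cxcl2 and Cxcl3 windows held the same 11 bases, GGGAATTTCCC, which contain 2 overlapping matches to the NF-kappaB consensus searched on both strands. They lie 71 to 61 bases before the start of Cxcl1, 97 to 87 bases before that of Cxcl2 and 73 to 63 bases before that of Cxcl3. The Ccl6 window held no match, nor did the windows of Ccl25. Of 27 members with a RefSeq promoter entry, 7 held a match within 250 bases (Ccl1, Ccl9, Ccl20, Cxcl1, Cxcl2, Cxcl3 and Cxcl10), and 7.25% of the 32851 promoter windows of the genome table did. No entry was found for Cxcl5, Ccl2 or Cxcl17. A match is a run of letters, and binding was not measured here.

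Cxcl1 (identifier 14825 in RefSeq), a Cxcr2 ligand also known as KC, measured 93.3, 95.6 and 104.7 TPM in the vehicle libraries 1 to 3, 679.6, 691.0 and 636.4 TPM with rMSA, 57.1, 49.7 and 89.2 TPM with insulin, and 914.7, 827.1 and 1003.9 TPM with both. Every library with rMSA was above every library without it, and every library with both agents was above every library with rMSA alone. Cxcl1 rose by 2.76 (SE 0.17, adjusted p = 5.97e-06 by limma) on the log2 scale with rMSA against vehicle and by 3.83 (SE 0.17, adjusted p = 5.68e-07) with rMSA plus insulin against insulin. Mean levels were 97.9 ± 6.0 TPM (SD, n = 3) in vehicle and 669 ± 29 TPM (SD, n = 3) in rMSA.

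Cxcl5, the Cxcr2 ligand also called LIX, reached the highest level of the ELR ligands. It measured 170.2, 158.1 and 138.9 TPM in vehicle, 1760, 1634 and 1342 TPM with rMSA, 61.2, 30.6 and 143.2 TPM with insulin, and 866.9, 616.3 and 1038 TPM with both. The rMSA libraries lay above all others, the libraries with both agents came next without overlap, and insulin library 3 lay near vehicle whereas insulin libraries 1 and 2 lay below it. The log2 change was 3.33 (SE 0.42, adjusted p = 0.000673) without insulin and 3.65 (SE 0.42, adjusted p = 0.000233) with insulin. Between rMSA plus insulin and rMSA alone the groups did not overlap, but the log2 difference of -0.93 (SE 0.42) had an adjusted p of 0.187.

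Cxcl2, also called MIP-2, was the least abundant of the ELR ligands that rose. Its level was 1.6, 1.23 and 1.31 TPM in vehicle, 12.1, 11.3 and 9.48 TPM with rMSA, 1.23, 0.57 and 1.82 TPM with insulin, and 15.7, 14.3 and 19.6 TPM with both. No library with rMSA overlapped one without it, and the change was 2.32 (SE 0.21, adjusted p = 6.07e-05) on the log2 scale without insulin and 3.02 (SE 0.21, adjusted p = 7.17e-06) with insulin.

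Cxcl3, another Cxcr2 ligand, stood at 19.4, 21.3 and 18.8 TPM in vehicle, at 163.0, 150.6 and 130.4 TPM with rMSA, at 10.4, 5.82 and 19.0 TPM with insulin, and at 166.1, 142.2 and 195.6 TPM with both. The groups with rMSA overlapped each other and were far above the groups without it. Cxcl3 changed by 2.84 (SE 0.30, adjusted p = 0.000215) without insulin and by 3.85 (SE 0.30, adjusted p = 1.85e-05) with insulin on the log2 scale.

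Cxcl15, the ELR ligand known as lungkine and located between Cxcl3 and Cxcl1, was tested too and did not pass. Its libraries ranged from 1.34 to 1.79 TPM in vehicle, 1.19 to 1.45 TPM with rMSA, 0.46 to 1.71 TPM with insulin and 0.82 to 1.29 TPM with both. The log2 differences were -0.09 (SE 0.20, adjusted p = 0.937) and -0.01 (SE 0.20, adjusted p = 0.983), so that 4 of the 5 ELR members rose in each comparison. Ppbp, an ELR ligand whose symbol is outside the rule, and its neighbour Pf4 were below the filter in AML12 cells. Cxcl1, Cxcl2, Cxcl3, Cxcl5 and Cxcl17 passed in both rMSA comparisons under every alternative setting and without each library in turn. Without insulin libraries 1 and 2, 1 insulin library is left. The log2 changes with rMSA plus insulin against that library were 3.34 for Cxcl1, 2.62 for Cxcl2, 3.06 for Cxcl3 and 2.51 for Cxcl5.

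**Figure D1:**
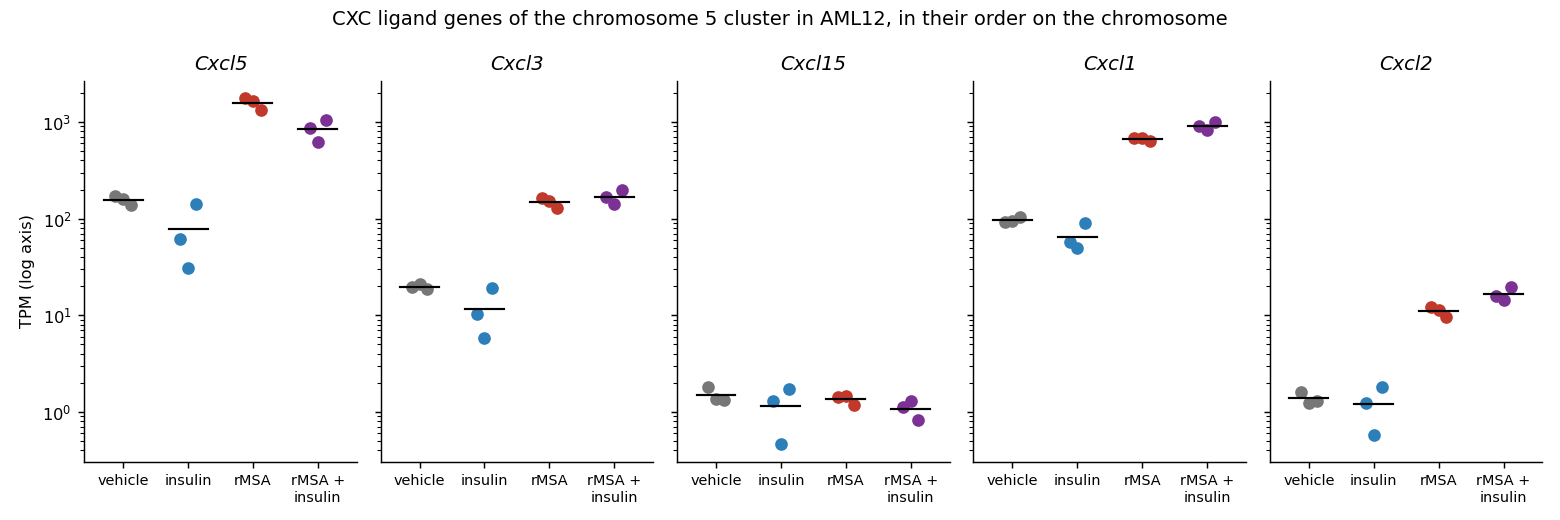
The 5 panels plot TPM on a shared log axis for the ELR ligands in the 12 AML12 libraries, in their order along chromosome 5, with 1 point per library and a black line at the mean of each group of 3. Cxcl5, Cxcl3, Cxcl1 and Cxcl2 are higher in every library with rMSA than in any without it, whereas Cxcl15 stays between 0.46 and 1.79 TPM in all 12 libraries.

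Cxcl17, a CXC ligand of mucosal surfaces on chromosome 7 (25400053-25412886, GRCm38.p6), moved the other way. It measured 60.3, 51.9 and 50.7 TPM in vehicle, 17.2, 13.7 and 18.7 TPM with rMSA, 63.1, 42.7 and 43.2 TPM with insulin, and 11.2, 8.21 and 9.34 TPM with both. Every library with rMSA was below every library without it, and the 3 libraries with both agents were the lowest. Cxcl17 fell by 1.67 (SE 0.18, adjusted p = 0.000227) with rMSA against vehicle and by 2.24 (SE 0.18, adjusted p = 2.11e-05) with rMSA plus insulin against insulin. The gene overlaps the transcript 4732471J01Rik, and the strand setting of the counting is not given in the sources used here, so reads of the pair may not be fully told apart.

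Ccl2, the main monocyte ligand of Ccr2, was by far the most abundant member in AML12 cells. Its level was 2136, 2074 and 1939 TPM in vehicle, 4091, 3968 and 3852 TPM with rMSA, 1444, 849.1 and 1802 TPM with insulin, and 2982, 2468 and 3127 TPM with both. Libraries with rMSA were above those without it, and within each pair of groups insulin went with the lower level. Ccl2 rose by 0.95 (SE 0.22, adjusted p = 0.0189) without insulin and by 1.13 (SE 0.22, adjusted p = 0.00499) with insulin. Without any 1 of the 6 vehicle and rMSA libraries the first change no longer passed (adjusted p = 0.0567 to 0.0773). The second was lost when only the 2 groups compared were fitted (adjusted p = 0.0886 by limma). Without insulin libraries 1 and 2, which leaves 1 insulin library, it was 0.66.

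Ccl7, a monocyte ligand that lies next to Ccl2 on chromosome 11, measured 9.04, 9.33 and 9.46 TPM in vehicle, 32.1, 30.8 and 27.9 TPM with rMSA, 5.42, 3.77 and 15.0 TPM with insulin, and 17.2, 9.79 and 16.8 TPM with both. The rMSA libraries were above all vehicle libraries, whereas insulin library 3 lay within the range of the libraries with both agents. Ccl7 rose by 1.6 (SE 0.37, adjusted p = 0.0208) with rMSA against vehicle, a call that was lost without any 1 of the 6 libraries (adjusted p = 0.0581 to 0.0823), and the change of 0.94 (SE 0.37, adjusted p = 0.11) with insulin did not pass. Without insulin library 3 it was 1.46 (adjusted p = 0.000625), and after quantile normalization it was 0.66 (adjusted p = 0.0461). Without insulin libraries 1 and 2, which leaves 1 insulin library, it was -0.08. Ccl8, the remaining monocyte ligand tested, had means of 2.23 TPM in vehicle, 4.0 with rMSA, 1.48 with insulin and 2.93 with both. It did not pass (adjusted p = 0.272 and 0.189), although it did in the first comparison when only the groups compared were fitted (adjusted p = 0.00368). In the second it did without library 1 of rMSA plus insulin (0.99, adjusted p = 0.0179).

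Ccl20, the Ccr6 ligand that attracts Th17 cells and immature dendritic cells, followed Ccl2 and Cxcl5 in abundance among the members in vehicle. It measured 147.1, 129.3 and 123.1 TPM in vehicle, 236.8, 215.7 and 198.8 TPM with rMSA, 108.9, 66.3 and 164.0 TPM with insulin, and 225.8, 182.6 and 255.0 TPM with both. Libraries with rMSA were above those without it in both pairs of groups. The log2 change of 0.70 (SE 0.26, adjusted p = 0.146) without insulin did not pass, and that of 1.04 (SE 0.26, adjusted p = 0.0188) with insulin did. The first passed after median scaling (0.63, adjusted p = 0.00721) and when only the groups compared were fitted (adjusted p = 0.000408). The second was lost without insulin library 1 (adjusted p = 0.0574), library 1 of rMSA plus insulin (adjusted p = 0.0656) or library 3 of rMSA plus insulin (adjusted p = 0.0819). It was 0.42 without insulin libraries 1 and 2, which leaves 1 insulin library.

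Ccl6 and Ccl9, ligands of Ccr1 found in rodents, followed different courses. Ccl6 measured 2.76, 2.26 and 2.12 TPM in vehicle, 4.67, 4.35 and 4.77 TPM with rMSA, 2.13, 1.54 and 1.58 TPM with insulin, and 4.37, 3.52 and 4.20 TPM with both, without overlap between libraries with and without rMSA. It rose by 0.73 (SE 0.13, adjusted p = 0.00445) and by 0.87 (SE 0.13, adjusted p = 0.00101), and both calls were lost after median scaling (0.66 and 0.61, adjusted p = 0.0554 and 0.0555). Ccl9 measured 9.36, 7.11 and 8.35 TPM in vehicle, 10.7, 8.67 and 10.4 TPM with rMSA, 6.26, 4.89 and 6.18 TPM with insulin, and 3.64, 3.02 and 3.71 TPM with both. The 3 libraries with both agents had the lowest Ccl9 of all 12, while vehicle and rMSA overlapped. Ccl9 did not pass with rMSA against vehicle (0.24, SE 0.15, adjusted p = 0.473) and fell by 0.60 (SE 0.15, adjusted p = 0.0167) with rMSA plus insulin against insulin. Without insulin library 1 that change was -0.55 (adjusted p = 0.0634) and without library 2 of rMSA plus insulin it was -0.53 (adjusted p = 0.0673).

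Ccl25, the Ccr9 ligand of thymus and gut, measured 9.24, 6.92 and 8.47 TPM in vehicle, 11.5, 13.6 and 12.8 TPM with rMSA, 9.38, 9.79 and 9.06 TPM with insulin, and 17.1, 16.7 and 15.0 TPM with both. Every library with rMSA was above every library without it, and those with both agents were the highest. It rose by 0.57 (SE 0.13, adjusted p = 0.0176) and by 0.73 (SE 0.13, adjusted p = 0.00293), but neither call held after median scaling (0.50 and 0.47, adjusted p = 0.218 and 0.187) or quantile normalization (0.49 and 0.46, adjusted p = 0.197 and 0.19). The first was also lost without rMSA library 2 or 3 (adjusted p = 0.0903 and 0.0681) and without vehicle library 2 or 3 (adjusted p = 0.0931 and 0.0553). Cxcl10, an interferon-induced ligand of Cxcr3, had means of 3.26 TPM in vehicle, 0.84 with rMSA, 1.74 with insulin and 0.627 with both. Its log2 difference with rMSA against vehicle, -1.22 (SE 0.34), came close to the threshold (adjusted p = 0.0531). It passed in 5 of 8 other settings, among them the replicate number as a block (adjusted p = 0.0338) and either scaling. It passed in 0 of 6 runs without 1 library (adjusted p = 0.0928 to 0.205). With insulin present the difference was -0.68 (adjusted p = 0.203). It passed after median scaling (-0.94, adjusted p = 0.0333) and without insulin library 2 (-1.10, adjusted p = 0.011). Without insulin libraries 1 and 2, which leaves 1 insulin library, it was -1.21. Ccl27a and Ccl27b, near-identical copies whose reads may be shared, lay between 13.8 and 17.8 TPM and between 2.70 and 3.22 TPM in group means and did not pass in either comparison.

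The summed TPM of the 25 members in the AML12 table was 2434 to 2680 in vehicle, 1097 to 2316 with insulin, 6272 to 7040 with rMSA and 4317 to 5711 under both agents. The ranges with rMSA lay above those without it, and the mixture differed as well. Ccl2 made up 79.7 to 80.3% of the sum in vehicle and 58.1 to 61.4% with rMSA, and 77.4 to 80.5% with insulin and 54.8 to 57.2% with both. Cxcl1, Cxcl2, Cxcl3 and Cxcl5 together went from 10.6 to 10.8% in vehicle to 33.8 to 37.1% with rMSA, and from 7.24 to 10.9% with insulin to 37.1 to 39.5% under both agents. The ranges of these shares with and without rMSA did not overlap.

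**Figure D2:**
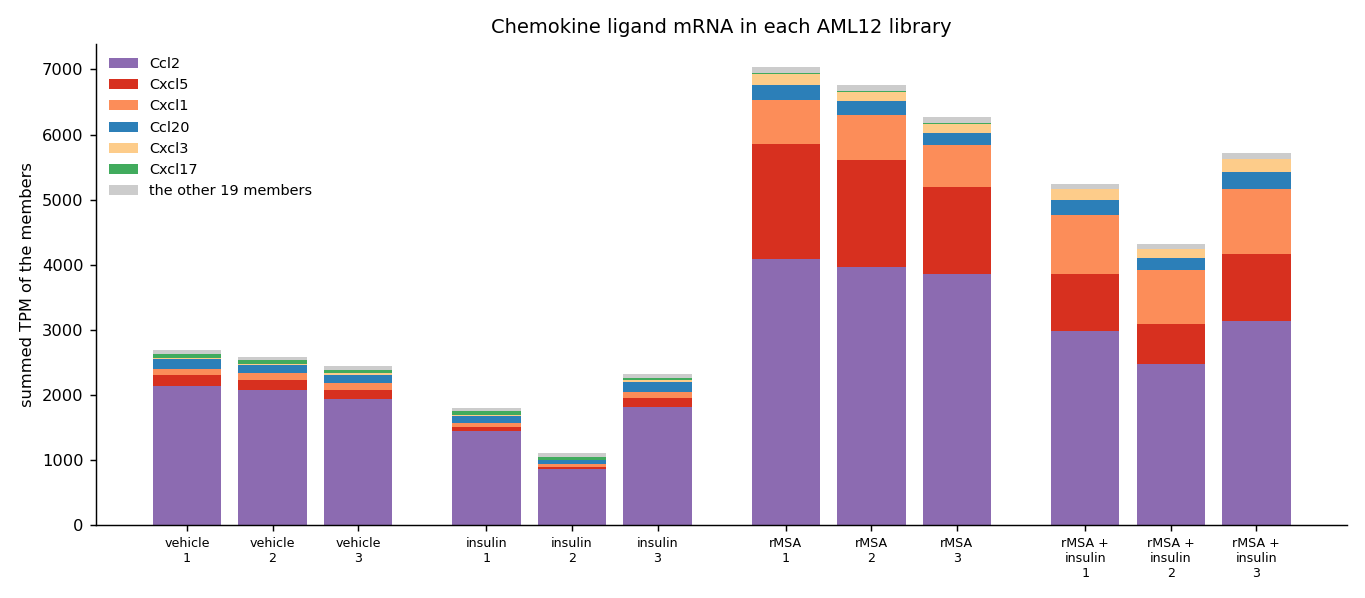
Stacked bars, from 0, give the summed TPM of the 25 chemokine ligands of the table in each AML12 library, with 6 members in colour and the other 19 in grey. Vehicle libraries reach 2434 to 2680 TPM and rMSA libraries 6272 to 7040 TPM, with Ccl2 the largest segment in all 12 libraries.

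Insulin against vehicle gave no member that passed (0 of 16 by limma, against 0% of all genes in either direction), although 6 members and 4072 genes (35.6%) had an unadjusted p under 0.05. Those 6 were Cxcl1 (log2 difference -0.62), Ccl9 (-0.45), Ccl2 (-0.65), Cxcl5 (-1.25), Cxcl3 (-0.84) and Ccl6 (-0.30), all lower with insulin, and their adjusted p was 0.138 in each case. No member lay above vehicle in all insulin libraries (4.28% of all genes), and Cxcl1, Ccl2 and Ccl9 lay below it in all 3 (11.8%). The median log2 difference was -0.35 over the members and -0.28 over all genes, and median scaling moved the latter to 0.13. Library 3 decided this count. Without insulin library 3, 10 members passed, 9 of them lower (Cxcl5 by -1.82, adjusted p = 0.00208, and Cxcl1 by -0.86, adjusted p = 0.00208, among them) and Ccl27a higher (0.51, adjusted p = 0.0369), where 59.2% of all genes fell and 6.86% rose. Without insulin libraries 1 and 2, which leaves 1 insulin library, the difference was -0.12 for Cxcl5 and -0.13 for Cxcl1.

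Adding insulin to rMSA lowered 2 of the 16 members, Ccl9 and Cxcl17, and raised none, compared with 1.17% of all genes that fell and 2.84% that rose. Of these, 1 fell by at least 1 on the log2 scale (0.48% of all genes passed in this way), and the groups did not overlap for 3 members that were higher (18%) and 5 that were lower (36.5%). Ccl9 was 10.7, 8.67 and 10.4 TPM with rMSA and 3.64, 3.02 and 3.71 TPM with both, and it fell by 1.29 (SE 0.15, adjusted p = 0.0015). This change passed without each library in turn. Cxcl17 fell by 0.72 (SE 0.18, adjusted p = 0.0494), and that call was lost without any 1 of the 6 libraries (adjusted p = 0.0739 to 0.216) and after either scaling (adjusted p = 0.148 and 0.118). Under median scaling or quantile normalization 2 members rose (Cxcl1 by 0.67 and 0.50, Cxcl2 by 0.76 and 0.80) and 2 fell (Ccl7 by -0.82 and -0.83, and Ccl9), while of all genes 592 rose and 698 fell after median scaling (5.17% and 6.1%) and 995 and 798 after quantile normalization (8.69% and 6.97%).

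Cxcl5 and Cxcl1 stood in different ratios when insulin was added to rMSA. The level of Cxcl5 per level of Cxcl1 was 2.11 to 2.59 in the rMSA libraries and 0.745 to 1.03 in the libraries with both agents, with 1.33 to 1.82 in vehicle and 0.617 to 1.6 with insulin. A factor that scales a whole library leaves this ratio as it is. For Cxcl3 per Cxcl1 it was 0.205 to 0.240 with rMSA and 0.172 to 0.195 with both. These ratios were chosen after the values were seen and are given as a description. Whether the effect of rMSA itself differed with insulin was asked with the interaction term, and no member passed (0 of 16, compared with 0.0175% of all genes). The term was 1.07 for Cxcl1 (SE 0.25, unadjusted p = 0.00124, adjusted p = 0.372 by limma) and -0.84 for Ccl9 (SE 0.21, unadjusted p = 0.00195, adjusted p = 0.405), and 5 members in all had an unadjusted p under 0.05 (6.46% of all genes). Without insulin library 3 the term passed for Cxcl1 (1.31, adjusted p = 0.00971) and Cxcl3 (1.41, adjusted p = 0.0347), beside 2.33% of all genes that were higher. Without insulin libraries 1 and 2, which leaves 1 insulin library, the term was 0.58 for Cxcl1.

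**Figure D3:**
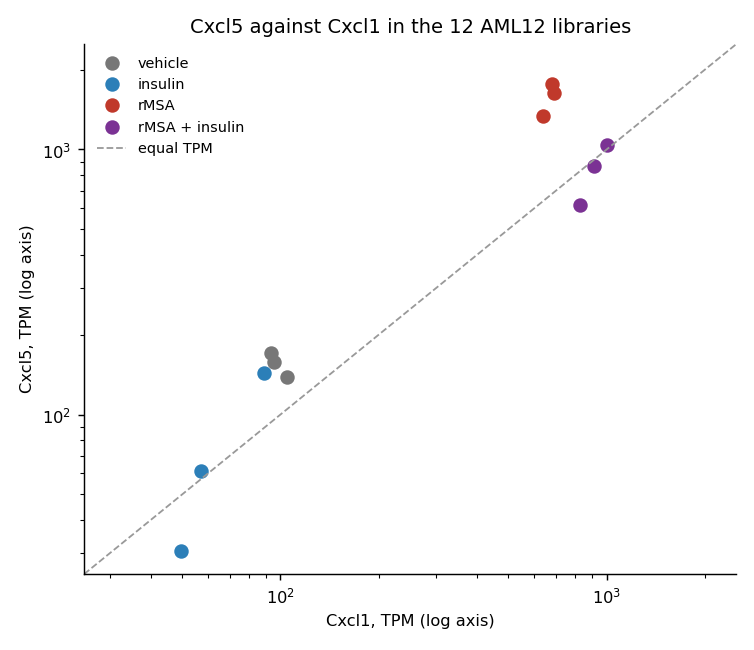
Points are the 12 AML12 libraries, with TPM of Cxcl1 on the horizontal log axis, TPM of Cxcl5 on the vertical log axis, colours for the 4 groups and a dashed line at equal TPM. The rMSA libraries lie above the line at 2.11 to 2.59 times as much Cxcl5 as Cxcl1, and the libraries with both agents lie close to it at 0.745 to 1.03 times.

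Of the 9 members of the AML12 table below the filter (Cxcl9, Ccl1, Ccl11, Ccl17, Ccl5, Cx3cl1, Ccl24, Ccl28 and Cxcl16), means ran from 0.005 to 0.458 TPM. Cxcl16, the ligand of Cxcr6 that stood highest of them with rMSA, measured 0.18, 0.51 and 0.51 TPM in vehicle, 0.82, 0.67 and 0.68 TPM with rMSA, 0.10, 0.17 and 0.12 TPM with insulin, and 0.38, 0.43 and 0.50 TPM with both. The levels of all 9 were too low for a change to be given.

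Genes upstream of the chemokines were read from lists. Of 15 regulators of NF-kappaB and of chemokine mRNA, 3 rose with rMSA against vehicle and 7 with rMSA plus insulin against insulin, and none fell, beside 6.16% and 14.5% of all genes that rose (median log2 change 0.40 and 0.68, all genes 0.06 and 0.21). Zc3h12a, which encodes the ribonuclease Regnase-1 that degrades mRNAs of inflammatory genes, went from 16.3, 18.9 and 19.1 TPM in vehicle to 52.2, 51.3 and 47.9 TPM with rMSA, and from 13.2, 22.4 and 17.1 TPM with insulin to 61.0, 58.0 and 55.2 TPM with both. Its libraries with and without rMSA did not overlap (log2 change 1.43, adjusted p = 0.000235, and 1.70, adjusted p = 5.01e-05). Cebpd, a transcription factor induced in inflammation, rose by 0.77 (adjusted p = 0.00147) and 0.84 (adjusted p = 0.00056). The RNA-binding protein gene Arid5a changed by 0.34 (adjusted p = 0.184) and rose by 1.05 (adjusted p = 0.000476) when insulin was present. Of 10 tested genes for cytokines that induce chemokines, their receptors and adaptors, 2 rose with rMSA and 5 with rMSA plus insulin, beside the same shares of all genes, among them the tumour necrosis factor receptors Tnfrsf1b (0.98 and 1.14, adjusted p = 0.00163 and 0.000457) and Tnfrsf1a (0.44 and 0.64, adjusted p = 0.00918 and 0.00065), and the adaptor Myd88 in the second (0.59, adjusted p = 0.00235). The single chemokine receptor past the filter, Cxcr2, differed by 0.08 and 0.32 (adjusted p = 0.926 and 0.232). In AML12 cells the summed TPM of the T and NK cell, B cell, monocyte, dendritic and stellate cell marker lists was at most 0.69 in any library. Of these lists 2 of 7, 1 of 5, 3 of 4, 3 of 4 and 4 of 7 genes, in that order, were in the table. The neutrophil list, of which 3 of 5 genes were in the table, summed to 16.6 to 17.8 TPM in vehicle, 58.9 to 75.0 with rMSA, 8.71 to 12.1 with insulin and 36.9 to 41.4 in the combined group, nearly all of it S100a8, whereas Ly6g lay between 0 and 0.31 TPM. The macrophage list (3 of 8 genes in the table) summed to 6.64 to 10.6 TPM over all libraries, and its gene Csf1r fell in both rMSA comparisons (-1.47, adjusted p = 4.12e-06, and -1.36, adjusted p = 4.50e-06). The hepatocyte list summed to 293 to 367 TPM in vehicle, 180 to 230 with rMSA, 277 to 433 with insulin and 168 to 295 in the combined group, and Ttr (-1.73 and -1.29, adjusted p = 0.0031 and 0.0102) and Serpina1a (-0.83 and -1.20, adjusted p = 0.0449 and 0.00428) fell. The part of these lists in the changes of the members was not tested.

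In the liver 8 of 24 tested members rose with rMSA and 2 fell, compared with 21.1% of all tested genes that rose and 7.93% that fell. The share of members that rose was therefore not far above that of all genes, and 6 members (8.06% of all genes) also differed by at least 1 on the log2 scale. The groups did not overlap for 12 members, 8 higher and 4 lower with rMSA, compared with 32.1% and 12.5% of all genes. The median log2 difference was 0.39 over the members and 0.12 over all genes. Under median scaling or quantile normalization, 7 rose and 4 fell. Of all genes 13.9% rose and 12.4% fell after median scaling, and 15.2% and 14% after quantile normalization. Differences are between 3 rMSA-treated and 3 saline mice. In bulk tissue a lower level may come from fewer cells of a type or from less RNA per cell, and these cannot be told apart.

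Ccl2, Ccl7 and Ccl24 were the CC ligands that rose and kept their call without each liver in turn. The Ccr2 ligand Ccl2 measured 2.46, 1.06 and 2.09 TPM in saline livers 1 to 3 and 4.50, 6.11 and 9.29 TPM in rMSA livers. The groups did not overlap, and Ccl2 rose by 1.40 (SE 0.27, adjusted p = 0.00624). The neighbouring Ccl7 measured 0.24, 0.12 and 0 TPM in saline and 1.59, 1.27 and 1.50 TPM in rMSA livers, again without overlap. It rose by 1.13 (SE 0.14, adjusted p = 0.000768), the smallest adjusted p of the liver members. Its saline mean of 0.12 TPM lay under the filter of 0.5 TPM, so Ccl7 was tested only through its level in the rMSA livers. Ccl24, known as eotaxin-2 and a ligand of Ccr3 on eosinophils, measured 0.42, 1.15 and 0.85 TPM in saline and 3.47, 3.76 and 3.25 TPM in rMSA livers. It rose by 1.33 (SE 0.18, adjusted p = 0.00107) without overlap. Ccl8, the remaining monocyte ligand tested, ranged from 0 to 1.33 TPM in saline and from 0 to 2.98 TPM in rMSA livers and did not pass (adjusted p = 0.973).

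Cxcl14, a CXC ligand made by many epithelia and stromal cells, measured 1.88, 0.81 and 2.13 TPM in saline and 3.99, 9.10 and 7.45 TPM in rMSA livers. All rMSA livers were higher, and Cxcl14 rose by 1.57 (SE 0.30, adjusted p = 0.00573). Together with Ccl2, Ccl7 and Ccl24 it passed without each liver in turn and under every alternative setting that tested them. A minimum mean of 1 TPM left out Ccl7, whose mean over all livers was 0.787 TPM.

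Cxcl12, the Cxcr4 ligand that retains blood cell precursors in the bone marrow, was the most abundant member in liver, at 37.9 to 53.6% of the summed TPM of all members. It measured 158.0, 134.3 and 160.9 TPM in saline and 194.9, 185.9 and 214.9 TPM in rMSA livers, without overlap. The log2 change of 0.39 (SE 0.11, adjusted p = 0.027) was lost after median scaling (0.25, adjusted p = 0.227) and after quantile normalization (0.27, adjusted p = 0.0932). It was also lost without saline liver 2 (adjusted p = 0.0934) and without rMSA liver 1, 2 or 3 (adjusted p = 0.0578, 0.051 and 0.0952).

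Both ligands that exist in a membrane-bound form rose. Cxcl16, the Cxcr6 ligand, measured 12.6, 7.60 and 8.78 TPM in saline and 14.9, 19.5 and 17.8 TPM in rMSA livers without overlap (log2 change 0.81, SE 0.19, adjusted p = 0.014). Cx3cl1, or fractalkine, measured 0.96, 0.38 and 0.88 TPM in saline and 1.56, 2.22 and 3.21 TPM in rMSA livers, also without overlap (0.92, SE 0.22, adjusted p = 0.015). Ccl22, a Ccr4 ligand made by dendritic cells and macrophages, measured 0.71, 0.20 and 0.27 TPM in saline and 0.98, 1.69 and 1.39 TPM in rMSA livers (0.76, SE 0.19, adjusted p = 0.0168). Ccl22 had a saline mean of 0.393 TPM and passed the filter only through the rMSA livers. Every rMSA liver was higher for all of these 3 genes. Without saline liver 2 all 3 lost the call (adjusted p = 0.0516 for Cxcl16, 0.06 for Cx3cl1 and 0.0702 for Ccl22). Without rMSA liver 2, Cxcl16 (adjusted p = 0.0533) and Ccl22 (adjusted p = 0.0619) lost it, and without rMSA liver 3, Ccl22 did (adjusted p = 0.0561).

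Cxcl9, the interferon gamma-induced ligand of Cxcr3 on T and NK cells, was among the 5 most abundant members in liver and fell. It measured 50.2, 24.6 and 23.2 TPM in saline and 7.03, 7.35 and 17.1 TPM in rMSA livers. The groups did not overlap, and the log2 change was -1.57 (SE 0.37, adjusted p = 0.0141), which did not pass without rMSA liver 1 (-1.37, adjusted p = 0.0536) or without the filter on low genes (adjusted p = 0.0597). Cxcl10, the other Cxcr3 ligand tested, had means of 5.55 TPM in saline and 8.88 TPM in rMSA livers with overlap (0.69, adjusted p = 0.158), and without saline liver 1 its difference was 1.09 (adjusted p = 0.0118). Ccl5, a ligand that attracts T cells, ranged from 17.1 to 63.2 TPM in saline and from 9.49 to 25.3 TPM in rMSA livers (-1.13, adjusted p = 0.115), and passed without saline liver 3 (-1.55, adjusted p = 0.0264) and after median scaling (-1.27, adjusted p = 0.0355). The T and NK cell markers summed to 5.32 to 20.2 TPM in saline and 4.42 to 8.31 TPM in rMSA livers. Of the 7 markers listed, 5 were in the table and tested. Cd3e fell and the others did not pass, beside 7.93% of all genes that fell. None was at 0 in all libraries of a group. Their part in the change of Cxcl9 was not tested.

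Cxcl13, the Cxcr5 ligand that attracts B cells, measured 3.69, 9.64 and 0.72 TPM in saline and 0.31, 0.29 and 0.16 TPM in rMSA livers. All rMSA livers were lower, but the saline livers spread widely (4.68 ± 4.5 TPM, SD, n = 3). The rMSA mean of 0.253 TPM was under the filter, so Cxcl13 passed it only through the saline livers. The log2 change of -1.82 (SE 0.54, adjusted p = 0.0362) passed when saline liver 3 was left out and not when any other liver was (adjusted p = 0.068 to 0.106, lowest without saline liver 2, where the change was -1.18, and highest without rMSA liver 3). It was also lost with 5 TPM added before the log (-0.78, adjusted p = 0.0675) and without the filter on low genes (adjusted p = 0.112). The B cell list summed to 1.23 to 2.39 TPM in saline and 3.50 to 4.14 TPM in rMSA livers.

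**Figure D4:**
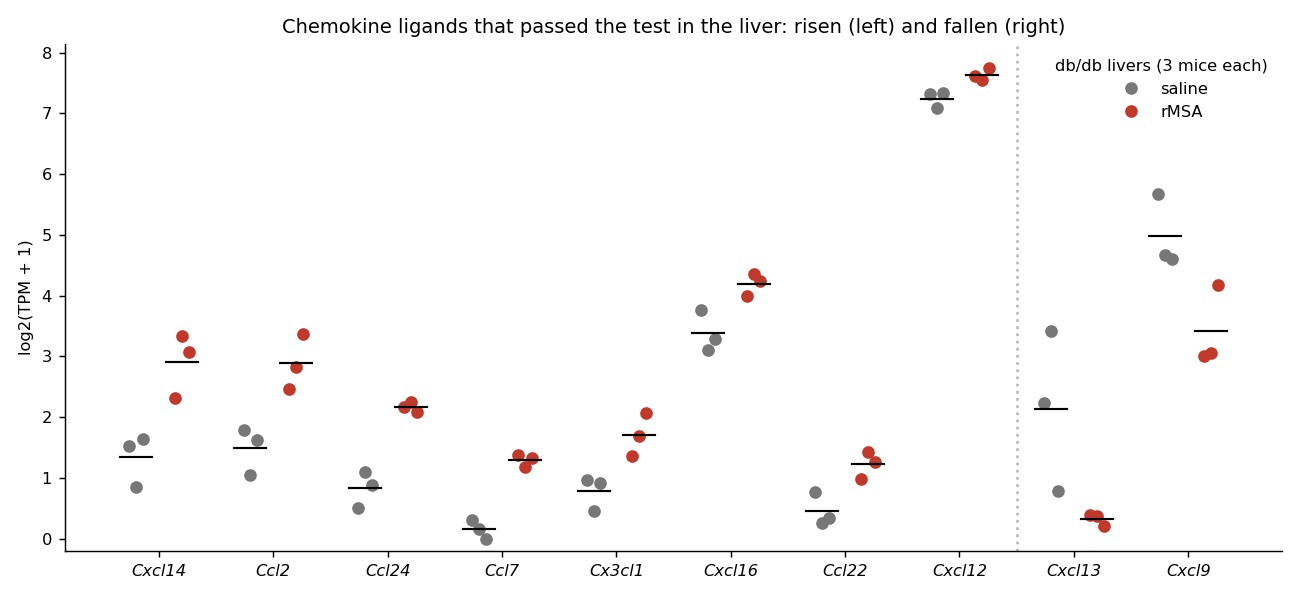
Points give log2(TPM + 1) in each of 3 saline (grey) and 3 rMSA-treated (red) db/db livers for the 10 members that passed, with a black line at each group mean. The 8 members left of the dotted line are higher in every rMSA liver and the 2 right of it, Cxcl13 and Cxcl9, are lower in every rMSA liver.

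Ccl9 and Ccl6 followed Cxcl12 in abundance in liver, and neither passed. Ccl9 measured 34.9, 33.2 and 33.5 TPM in saline and 29.0, 28.6 and 28.7 TPM in rMSA livers. The groups did not overlap, with a difference of -0.23 (SE 0.10, adjusted p = 0.11). It passed without the filter (adjusted p = 0.0338) and after quantile normalization (adjusted p = 0.0292). Ccl6 measured 29.4, 18.4 and 15.4 TPM in saline and 19.6, 34.6 and 44.8 TPM in rMSA livers with overlap (0.60, SE 0.31, adjusted p = 0.195), and without rMSA liver 1 it passed (0.92, adjusted p = 0.0443). Ccl3 and Ccl4, overlapping neighbours that attract macrophages and T cells, were high in saline liver 1 (5.12 and 4.20 TPM) and passed without it (1.18 and 0.93, adjusted p = 0.00712 and 0.0138). Including that liver, their differences were 0.60 and 0.39 (adjusted p = 0.344 and 0.53).

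Neither of the tested ELR members, Cxcl1 and Cxcl2, passed in the liver. Cxcl1 measured 8.45, 7.19 and 5.09 TPM in saline and 23.8, 7.15 and 5.96 TPM in rMSA livers. It was high in rMSA liver 1, while the other rMSA livers lay within the saline range (0.52, SE 0.44, adjusted p = 0.415). Cxcl2 had means of 0.443 and 0.567 TPM (0.14, SE 0.20, adjusted p = 0.66). Cxcl5 ranged from 0 to 0.20 TPM over all 6 livers, Cxcl3 was above 0 in 1 liver, at 0.09 TPM, and Cxcl17 was listed at 0 in all 6. The difference between liver and AML12 cells was not tested, since the 2 tables were normalized separately and hold different treatments.

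Ligands of Ccr7, Ccr9 and Ccr10 and Xcl1 did not pass. Ccl21a, a Ccr7 ligand of lymphatic vessels, measured 2.98, 2.28 and 2.43 TPM in saline and 2.30, 0 and 0.29 TPM in rMSA livers, with 1 overlapping liver (-1.13, adjusted p = 0.0598). It passed after median scaling (-1.27, adjusted p = 0.0273), after quantile normalization (-1.27, adjusted p = 0.033) and without rMSA liver 1 (-1.64, adjusted p = 0.00137). It is one of several near-identical copies among which reads can be split, and its copies Ccl21b and Ccl21c were below the filter, Ccl21b at 0 in all saline livers and at 1.62, 0 and 1.36 TPM in rMSA livers, and Ccl21c at 0.53, 0.86 and 0.48 TPM in saline and 0.03, 0.39 and 0 TPM in rMSA livers. Ccl19, also a Ccr7 ligand, had means of 1.35 and 1.42 TPM (adjusted p = 0.802) and passed without rMSA liver 3 (-0.68, adjusted p = 0.0314). Ccl25 had means of 3.84 and 3.06 TPM without overlap (-0.25, adjusted p = 0.237). Ccl27a (19.2 and 17.8 TPM, adjusted p = 0.653) and the XCR1 ligand Xcl1 (0.763 and 0.533 TPM, adjusted p = 0.557) did not pass. The 13 members below the filter in liver were Cxcl3, Cxcl5, Cxcl15, Cxcl17, Ccl1, Ccl11, Ccl12, Ccl17, Ccl20, Ccl21b, Ccl21c, Ccl27b and Ccl28, with means from 0 to 0.497 TPM.

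**Figure D5:**
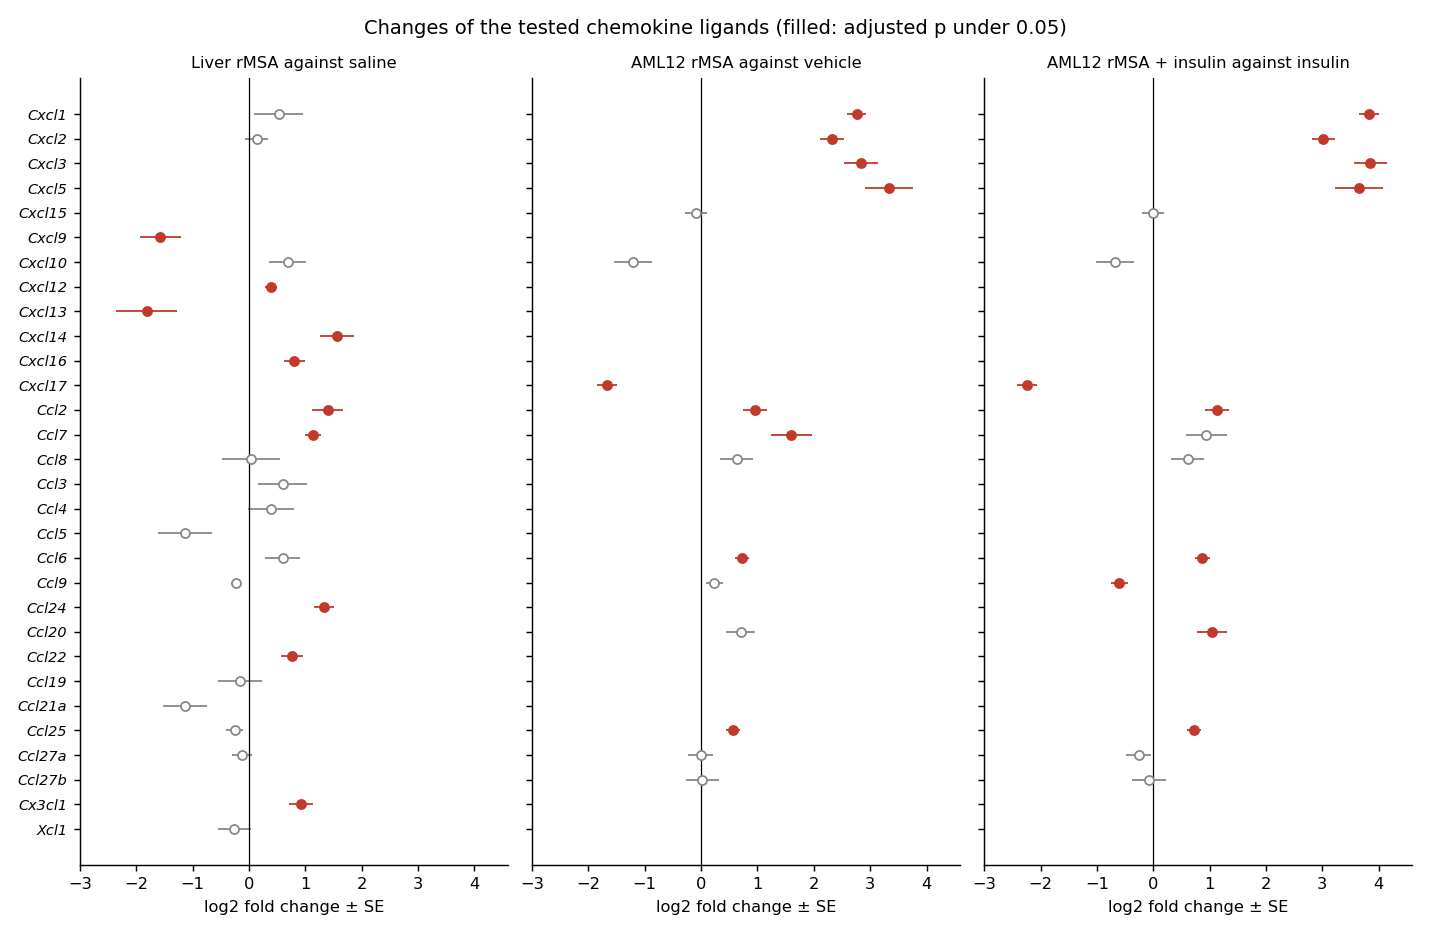
Each point is the log2 fold change of a tested member, with a bar of 1 SE on either side, in 3 panels for liver rMSA against saline, AML12 rMSA against vehicle and AML12 rMSA plus insulin against insulin; filled red points passed the test, and members without a point were not tested in that table. The ELR ligands Cxcl1, Cxcl2, Cxcl3 and Cxcl5 lie between 2.32 and 3.85 in the AML12 panels, while Cxcl1 and Cxcl2 did not pass in the liver panel.

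Chemokines under other symbols and receptors were read from lists as well. Pf4, the platelet factor 4 gene, measured 0.98, 2.62 and 1.46 TPM in saline and 6.44, 6.77 and 6.40 TPM in rMSA livers, and Ppbp, which encodes pro-platelet basic protein, measured 0.43, 0.35 and 0.08 TPM in saline and 1.65, 1.40 and 1.26 TPM in rMSA livers. Neither overlapped, and both rose (1.53, adjusted p = 0.00141, and 0.93, adjusted p = 0.00317). Of the signalling receptors, 7 were tested. Among them Cx3cr1, the receptor of Cx3cl1, went from 0.40, 0.39 and 0.26 TPM in saline to 2.21, 2.04 and 2.95 TPM in rMSA livers and rose (1.32, adjusted p = 0.000495). Cxcr3, the receptor of Cxcl9 and Cxcl10, went from 2.07, 1.96 and 1.28 TPM to 0.39, 0.67 and 0.90 TPM and fell (-0.74, adjusted p = 0.0161). For Cx3cr1 and Cxcr3 the groups did not overlap. Ppbp and Cx3cr1 were under 0.5 TPM in every saline liver, so both passed the filter only through the rMSA livers. Of 5 scavenging receptors tested, only Ackr1 rose (0.68, adjusted p = 0.0126). These calls stand beside 21.1% of all genes that rose and 7.93% that fell. Of all genes 32.1% were higher and 12.5% lower with rMSA without overlap.

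Of 15 regulators of NF-kappaB and of chemokine mRNA in liver, 4 rose and 4 fell, beside 21.1% and 7.93% of all genes. Their median log2 difference was 0.07 (all genes, 0.12). Tnip1, an inhibitor of NF-kappaB signalling, rose by 1.02 (adjusted p = 0.00139) and Nfkb2 by 0.77 (adjusted p = 0.00418), whereas Zfp36, which encodes tristetraprolin, a protein that destabilizes cytokine mRNAs, went from 141.9, 173.6 and 177.5 TPM to 87.4, 94.3 and 101.6 TPM and fell (-0.79, adjusted p = 0.00168). Of 12 inducers tested, 1 rose and 2 fell, beside the same shares of all genes. Il1r1, the interleukin 1 receptor, went from 30.3, 28.8 and 20.4 TPM in saline to 7.54, 6.09 and 12.2 TPM in rMSA livers without overlap (-1.55, adjusted p = 0.00228), Il17ra fell (-0.44, adjusted p = 0.0467), and Tlr2 rose (0.87, adjusted p = 0.0214).

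Marker lists of other liver cells were summed in each library, and their counts stand beside the 21.1% of all genes that rose and 7.93% that fell. The neutrophil list summed to 9.31 to 13.4 TPM in saline and 22.2 to 24.5 TPM in rMSA livers (3 of 4 tested rose), the stellate cell and fibroblast list to 111 to 233 and 260 to 341 TPM (5 of 7 rose), the bile duct list to 22.5 to 38.3 and 77.0 to 167 TPM (3 of 5 rose), the endothelial list to 112 to 171 and 174 to 179 TPM (1 of 6 rose) and the monocyte list to 7.06 to 9.12 and 9.08 to 13.4 TPM (1 of 4 rose). The macrophage list overlapped, at 368 to 580 TPM in saline and 397 to 597 TPM in rMSA livers, with Cd68 higher and the scavenger receptor Marco lower (-3.04, adjusted p = 0.00152) of 8 tested. No list had a marker at 0 in all libraries of a group. The part of these cell types in the changes of Ccl2, Ccl7, Ccl24, Cxcl12, Cxcl14, Cxcl16, Cx3cl1 and Ccl22 was not tested.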

How the data were processed

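Poly(A)-selected or rRNA-depleted RNA (the sources describe both) from 6 livers and 12 AML12 samples was sequenced on a BGISEQ-500. The submitters' processing notes name Trimmomatic 0.33, STAR 2.5.2b, featureCounts of Subread 1.6.0 and the mouse build GRCm38. For the annotation and strand setting, nothing is stated in the labels or methods. The authors deposited TPM values, in 1 table for liver and 1 for AML12, normalized separately. Here log2(TPM + 1) was fitted with limma 3.58.1 (R 4.3.3, trended variance), 1 fit per table, the 4 AML12 groups sharing 1 spread, with Benjamini-Hochberg adjustment over all genes averaging 0.5 TPM or more. The scripts were tested on simulated data.

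Samples were grouped by their labels. Every gene that met the symbol rule is accounted for. Members that passed in a rMSA comparison (up to 12 per table) and the 3 most abundant are given library by library, the others by mean or range. Up to 3 genes per pathway list were named, by smallest p. Members and lists were chosen with earlier results of these data known. Positions were matched to RefSeq (GRCm38.p6) for 37 of 37 members and promoters for 27. Vehicle and rMSA replicates with the same number deviated together (r = 0.487, 0.124 and 0.543 across genes, each over 0.1). The block fit is therefore given beside results whose call it changed there. However, rMSA library 2 correlated better with vehicle library 1 (r = 0.168) than with its own number. In the other pairs of groups, r was not above 0.1 for every number. Alternatives were a log offset of 0.1 or 5 TPM, a minimum mean of 1 TPM, no filter, a fold minimum, median scaling and quantile normalization. Others were the replicate block, only the groups compared, and leaving out each library. Leaving out insulin libraries 1 and 2 kept 1 insulin library, so that run is given as effect sizes. Depth is unknown, so no counting error is given. Protein sequences were not used here. A gene of the receptor list is not reported here.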

Additional observations from a re-analysis of the deposited data

Results flagged for a closer look

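Ccl25, the Ccr9 ligand, differed in sign between the liver, where it did not pass, and AML12 cells, where it rose. In liver every rMSA-treated mouse was below every saline mouse (3.41, 3.02 and 2.75 TPM against 4.16, 3.95 and 3.42 TPM), with a log2 difference of -0.25 that did not pass (adjusted p = 0.237 by limma). In AML12 cells every library with rMSA was above every library without it, with log2 changes of 0.57 against vehicle (adjusted p = 0.0176) and 0.73 against insulin (adjusted p = 0.00293), calls that were lost after median scaling or quantile normalization (adjusted p = 0.187 to 0.218). The difference between liver and AML12 cells was not tested, because the tables were normalized separately. Groups of 3 are too small for a search for single outlying samples.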

How the results depend on the processing

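Adding a fold minimum of 1 on the log2 scale left 6 members in liver (8.06% of all genes) and 1 in rMSA plus insulin against rMSA (0.48%). Fitting only the groups compared added Ccl8, Ccl20 and Cxcl10 in rMSA against vehicle, where 23.9% of all genes passed. In rMSA plus insulin against insulin it gave 5 of 16 members (3.26% of all genes). Ccl2, Ccl6, Ccl9, Ccl20 and Ccl25 lost their call there (adjusted p = 0.0504 to 0.155 by limma). In rMSA plus insulin against rMSA that fit gave 8 of 16 (41.1%), where median scaling and quantile normalization gave 4 each (11.3% and 15.7%). Leaving out 1 library gave 5 to 12 members in liver (5 of 24 without saline liver 2, 12 without saline liver 1, beside 20.2% and 23.7% of all genes), 0 to 10 in insulin against vehicle, 1 to 1 in rMSA plus insulin against rMSA (0.489% to 1.22% of all genes) and 0 to 2 in the interaction, with 10 and 2 both without insulin library 3 (66% and 2.41% of all genes). In rMSA against vehicle every run without 1 library lost Ccl2 and Ccl7, and Ccl25 kept its call in 2 of 6. Of all genes 4.84% to 5.65% passed in those runs. The replicate block gave 8 members in liver (18.3% of all genes) and 10 in rMSA against vehicle (6.98%), where it added Cxcl10. It gave 10 in rMSA plus insulin against insulin (14.7%), 2 in rMSA plus insulin against rMSA (2.75%) and 0 in the other 2 AML12 tests (0%). Pairing could not be shown for the liver, where samples did not correlate best with their own number (r = 0.0502, -0.393 and -0.372 for numbers 1 to 3). For insulin with rMSA plus insulin every sample correlated best with its own number (r = 0.0820, 0.769 and 0.772), a hint from the data and not the design, with number 1 under the limit of 0.1. No called change reversed its direction under any alternative run. Causes of the moved counts were not tested. From TPM alone no depth limit can be given, and members averaging under 0.5 TPM were tested in the fit without a filter and in no other.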
